A study of Bos taurus with 12 samples.

Results

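CRABP2, ALDH1A1, RARRES1 and RBP4 are 4 genes that carry, make, bind or respond to retinoids, the family of vitamin A and its derivatives. Their transcript signals were followed in the granulosa and theca layers of bovine antral follicles. They were taken by gene symbol from the platform's table of probe sets and genes. Each of the 4 had 1 probe set, among 9155 genes with a probe set of 1 symbol, and all 4 were bright enough to be tested.

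Granulosa cells form the epithelium facing the follicle's fluid, and theca cells make steroids in the layer with blood vessels outside the basement membrane. Both were collected from follicles of 3 sizes. Small follicles measured up to 5 mm across, medium ones 5 to 10 mm and large ones over 10 mm, which made 6 groups of 2 arrays and 12 arrays in all. Every sample came from untreated ovaries of young cycling heifers that were not pregnant. The ovaries were at the follicular stage, with large antral follicles developing and no corpus luteum. Each RNA sample pooled 20 to 40 follicles of 1 size, per the extraction protocol, while the design text counts ovaries from several animals. The labels call the replicates biological but leave out whether the pools had animals in common, so the p-values measure the spread between pools.

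Vitamin A travels in plasma as retinol bound to RBP4, which in turn is held by transthyretin (TTR), and STRA6 is the membrane receptor that takes retinol up from RBP4. Inside cells, retinol is oxidised to retinal and then by retinal dehydrogenases such as ALDH1A1 to retinoic acid, the hormone-like form. CRABP2 carries retinoic acid to nuclear retinoic acid receptors, which switch genes on, and RARRES1 is a membrane protein named for its induction through those receptors. In the ovary, retinoids are known from follicular fluid, and the granulosa layer has no blood vessels of its own.

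Total RNA was read on bovine Affymetrix arrays, and values are the deposited array signals. A change is a difference of log2(signal + 16) between groups, given with the standard error of a limma model over all 12 arrays, and the fold given with a change is on that scale, which understates the folds of dim genes. A ratio of 2 arrays, or of an array to a mean, is a ratio of the signals themselves. A probe set is called, and said to rise, fall or differ, at a Benjamini-Hochberg adjusted p under 0.05 over the 17236 probe sets tested. Signals of different probe sets cannot be ranked against each other, so levels are compared only within a gene.

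The label fields disagreed in part, since every description names theca, whereas the titles and source names of 6 samples say granulosa. Titles were used. Over 6 theca markers with a probe set (of 7 listed), the summed signal was 750.5 to 1704.4 on the granulosa arrays and 17699.5 to 28362.6 on the theca arrays. Over 13 granulosa markers (of 14 listed), it was 22810.5 to 32834.9 on granulosa arrays, 9370.6 to 16461.6 on small and medium theca arrays and 18268.3 to 25199.8 on large theca arrays. The arrays of each layer thus carried that layer's markers, and granulosa markers were also present on theca arrays. In large follicles the granulosa marker sum did not separate the layers. Theca large replicate 2 (25199.8) lay above granulosa large replicate 2 (22810.5). On quality measures, 2 arrays differed from the others. Theca small replicate 1 had a GAPDH signal ratio of the 3' to the 5' probe set of 8.36, against 0.984 to 1.30 elsewhere. The highest median signal (48.7) was that of granulosa large replicate 1, which also had an actin 3' to 5' ratio of 21.0, against 2.39 to 11.2 on the other 11 arrays. Its signal for the haemoglobin gene HBB was 578.5, against 7.7 to 50.4 elsewhere.

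The 4 genes fell into 3 patterns between the layers. CRABP2 was higher in granulosa at every follicle size, by 13.7-fold over all sizes. ALDH1A1 and RARRES1 were higher in theca at every size, by 31.1-fold and 14.1-fold over all sizes. RBP4 was not called in any of the 11 contrasts. From small to large follicles, ALDH1A1 and RARRES1 rose on the granulosa arrays, and the other members did not pass the test in either layer. Both rises rested on few arrays, and leukocyte markers rose in the same contrast.

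**Figure D1:**
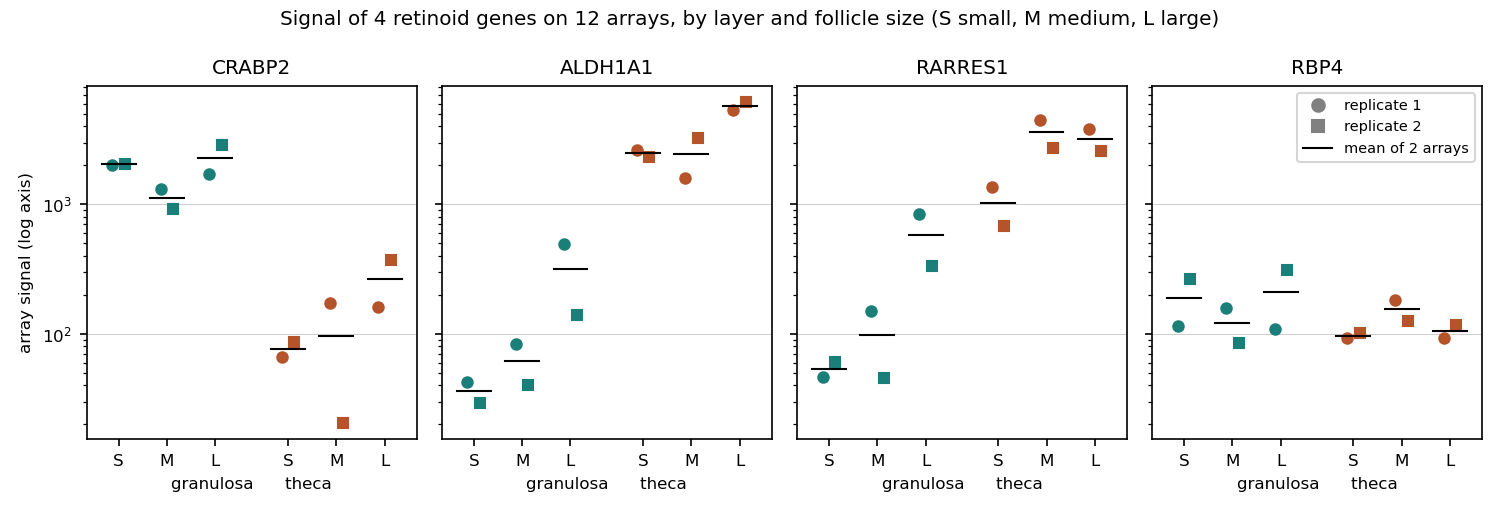
Array signal (log axis) of CRABP2, ALDH1A1, RARRES1 and RBP4 on the 12 arrays, by layer and follicle size, with 1 point per array and a line at the mean of the 2 arrays of a group. CRABP2 lies between 917.4 and 2858.5 in granulosa and at or below 369.5 in theca, ALDH1A1 and RARRES1 show the opposite order, and the RBP4 points of the layers overlap.

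RBP4, the plasma carrier of retinol, gave granulosa signals of 114.4 and 263.5 in small, 157.6 and 85.0 in medium and 108.3 and 310.1 in large follicles. In theca it gave 92.4 and 101.9 in small, 183.2 and 126.7 in medium and 93.7 and 116.6 in large follicles. The range in granulosa, 85.0 to 310.1, enclosed the range in theca, 92.4 to 183.2, and the medians were 136.0 and 109.25. In the order of the 6 groups, from large granulosa down to small theca, the arrays of every pair of neighbours overlapped.

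Granulosa minus theca over all sizes was 0.38 ± 0.28 for RBP4 (adjusted p = 0.328), with a 95% interval of -0.21 to 0.97, which allows a difference of nearly 1 log2 unit in favour of granulosa. Over the same contrast, 24.8% of all tested probe sets were called. Within sizes the RBP4 difference was 0.76 ± 0.48 (small), -0.35 ± 0.48 (medium) and 0.74 ± 0.48 (large), with adjusted p-values of 0.343, 0.773 and 0.397. Its size changes ran from -0.53 to 0.60 in granulosa and from -0.48 to 0.58 in theca, and the smallest adjusted p among those 6 was 0.7. The signals of the 2 large granulosa replicates differed by a ratio of 2.86 and those of the small ones by a ratio of 2.30.

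CRABP2, the retinoic acid binding protein that delivers its ligand to the nucleus, gave granulosa signals of 2021.9 and 2067.4 in small, 1309.0 and 917.4 in medium and 1731.3 and 2858.5 in large follicles. Theca signals were 66.4 and 87.3 in small, 173.1 and 20.5 in medium and 161.9 and 369.5 in large follicles. The layers did not overlap: the lowest granulosa array was 2.48 times the highest theca array. In the order of the groups, large and small granulosa overlapped, medium granulosa lay below them, then came large theca, and small and medium theca overlapped at the bottom.

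Granulosa minus theca over all sizes was 3.77 ± 0.35 for CRABP2 (adjusted p = 4.09e-06). In small follicles the difference was 4.48 ± 0.60 (22.3-fold, adjusted p = 0.000465), where 9.14% of all tested probe sets were called. In medium follicles it was 3.74 ± 0.60 (13.4-fold, adjusted p = 0.00162), against 6.0% of all probe sets called. In large follicles it was 3.10 ± 0.60 (8.56-fold, adjusted p = 0.0111), against 4.41% called. CRABP2 was therefore among the called probe sets at each size, with the smallest fold in large follicles, but the difference between the layers in the large minus small change (-1.38 ± 0.85, interval -3.20 to 0.43, adjusted p = 0.586) did not pass the test, a contrast in which 0.0116% of probe sets (2) were called. That count rests on single arrays, at 268 without granulosa large replicate 2 and 224 when theca small replicate 2 was left out, with no member among the calls under any alternative.

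The theca medium replicates of CRABP2, 173.1 and 20.5, had a signal ratio of 8.44, and the medium difference was 2.56 without theca medium replicate 2 and 4.93 without replicate 1, called both ways. The call in large follicles was lost without theca large replicate 1 (2.54, adjusted p = 0.126) and when granulosa large replicate 2 was left out (2.74, adjusted p = 0.057). The call over all sizes was kept whichever array was left out, at 3.38 to 4.17.

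ALDH1A1, which oxidises retinal to retinoic acid and also acts on other aldehydes, gave theca signals of 2612.7 and 2341.6 in small, 1594.0 and 3277.2 in medium and 5339.0 and 6173.7 in large follicles. Granulosa signals were 42.9 and 29.4 in small, 84.3 and 40.3 in medium and 498.2 and 140.3 in large follicles. The highest granulosa array, large replicate 1, stayed below the lowest theca array, whose signal was 3.20 times as high. Large theca stood above small and medium theca, which overlapped, and large granulosa stood above medium and small granulosa, which overlapped too.

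The ALDH1A1 difference, granulosa minus theca over all sizes, was -4.96 ± 0.29 (adjusted p = 8.66e-08), and 22 of the 17236 probe sets had an adjusted p as small or smaller. Small follicles gave -5.59 ± 0.51 (48.1-fold), medium ones -4.94 ± 0.51 (30.6-fold) and large ones -4.34 ± 0.51 (20.3-fold), with adjusted p-values of 3.67e-05, 5.41e-05 and 0.000355. All 4 calls were kept whichever array was left out, and the large difference then ran from -5.20 without granulosa large replicate 1 to -3.48 without granulosa large replicate 2.

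RARRES1, the retinoic acid responder, gave theca signals of 1358.9 and 684.3 in small, 4461.3 and 2748.6 in medium and 3802.9 and 2568.8 in large follicles. Granulosa signals were 46.3 and 60.9 in small, 151.6 and 45.6 in medium and 836.4 and 334.9 in large follicles. Here the layers overlapped by 1 array, since granulosa large replicate 1 (836.4) exceeded theca small replicate 2 (684.3). Within each size the theca arrays lay above the granulosa arrays.

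The RARRES1 difference over all sizes was -3.82 ± 0.31 (adjusted p = 1.12e-06). It was -3.83 ± 0.53 in small (14.2-fold, adjusted p = 0.000601), -5.11 ± 0.53 in medium (34.6-fold, adjusted p = 5.41e-05) and -2.52 ± 0.53 in large follicles (5.74-fold, adjusted p = 0.0171). The large difference was thus the smallest of the 3. Its call was lost without granulosa large replicate 2 (-1.88, adjusted p = 0.0919), without theca large replicate 1 (-2.24, adjusted p = 0.148) and without theca large replicate 2 (-2.80, adjusted p = 0.0597). The calls over all sizes and in small and medium follicles were kept whichever array was left out. In bulk samples such as these, fewer cells of a type and less RNA per cell cannot be told apart.

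Markers of other cells of the follicle wall differed in the direction of ALDH1A1 and RARRES1. Over all sizes, 6 of 7 fibroblast and stroma markers, 5 of 6 tested endothelial markers and 5 of 6 smooth muscle and pericyte markers were lower in granulosa, and 0 of them higher. Of all probe sets 11.2% were called lower there. In large follicles alone the counts called lower were 4 of 7, 0 of 6 and 3 of 6, where 4.41% of all probe sets were called in either direction. The summed fibroblast and stroma signal was 1959.5 to 8973.0 on granulosa and 22297.9 to 30026.6 on theca arrays, the endothelial sum 129.9 to 492.5 and 444.2 to 1533.0, and the smooth muscle and pericyte sum 1518.0 to 5767.9 and 8118.4 to 17465.9. The endothelial sums overlapped and the others did not. The part of these cells in the theca signals of ALDH1A1 and RARRES1 was not tested.

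**Figure D2:**
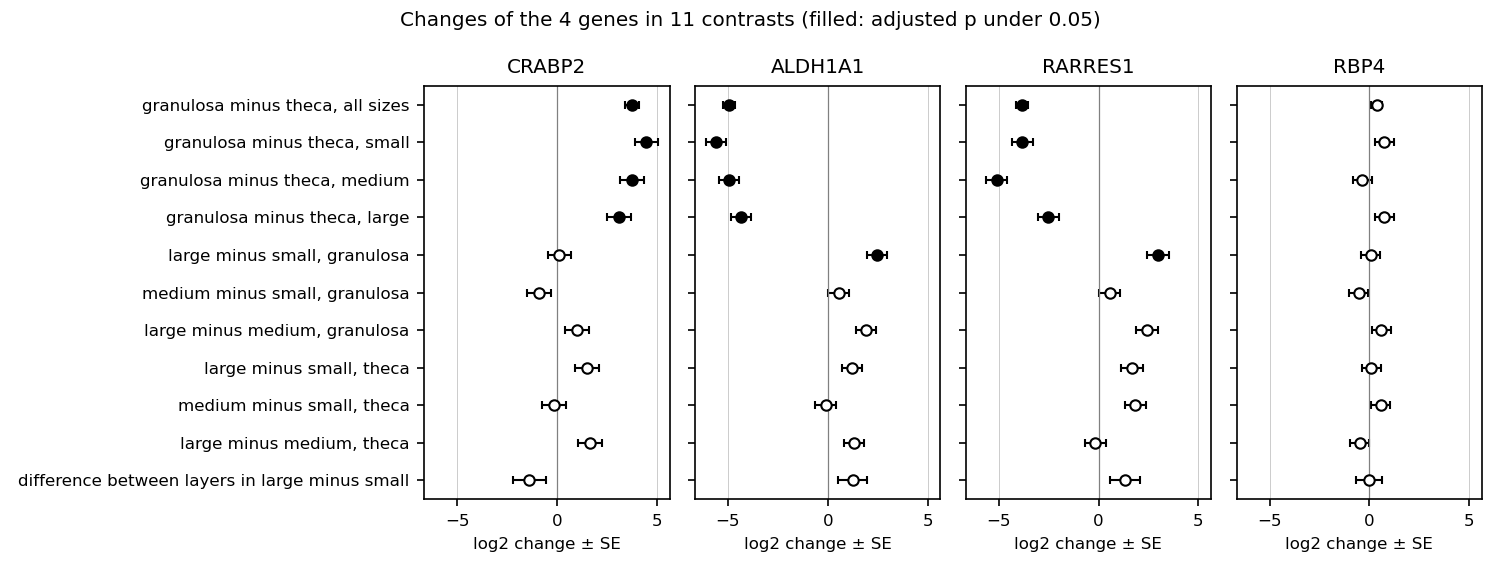
Changes of the 4 genes in the 11 contrasts, as log2 change ± standard error of the limma model, with filled points at an adjusted p under 0.05. CRABP2 is filled to the right in the 4 layer contrasts, ALDH1A1 and RARRES1 are filled to the left in those and to the right in large minus small granulosa, and every RBP4 point is open.

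On the granulosa arrays, ALDH1A1 rose from small to large follicles by 2.45 ± 0.51 (5.48-fold, adjusted p = 0.0215) and RARRES1 by 2.98 ± 0.53 (7.90-fold, adjusted p = 0.0105). Of all tested probe sets 2.22% were called in this contrast, 1.82% higher and 0.4% lower in large follicles. For both genes the 2 large arrays lay above the 4 other granulosa arrays, and large replicate 1 was the higher of the 2. CRABP2 changed by 0.12 ± 0.60 (adjusted p = 0.952, interval -1.16 to 1.41) and RBP4 by 0.08 ± 0.48 (adjusted p = 0.963), and neither was called.

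The other size steps in granulosa gave no call among the 4 genes on all arrays. From medium to large follicles the change was 1.92 ± 0.51 for ALDH1A1 (adjusted p = 0.103) and 2.43 ± 0.53 for RARRES1 (adjusted p = 0.0536), in a contrast with 0.679% of probe sets called. RARRES1 passed the test there with an intensity trend (adjusted p = 0.0476) and without granulosa medium replicate 1 (3.15, adjusted p = 0.0351), granulosa large replicate 2 (3.07, adjusted p = 0.0176) or either theca small replicate (2.43, adjusted p = 0.0474 for each). ALDH1A1 passed without granulosa large replicate 2 (2.77, adjusted p = 0.0107). From small to medium follicles it was 0.54 ± 0.51 and 0.55 ± 0.53, with an adjusted p of 1.0 for each, and 0.0058% of probe sets were called. CRABP2 was -0.89 ± 0.60 from small to medium and 1.01 ± 0.60 from medium to large follicles, so its medium granulosa arrays were the lowest of that layer without passing the test.

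In theca no member was called between sizes. Of all probe sets 0.0348% (6) were called in large minus small, 0.0116% (2) in medium minus small and 0.0% in large minus medium, where 0 were called by limma and 539 had an unadjusted p under 0.05. When theca small replicate 2 was left out, the first 2 counts became 607 and 247, still with no member among them. Large minus small theca was 1.21 ± 0.51 for ALDH1A1 (adjusted p = 0.442), 1.68 ± 0.53 for RARRES1 (adjusted p = 0.335) and 1.51 ± 0.60 for CRABP2 (adjusted p = 0.42). The large theca arrays of each of these 3 genes lay above both small theca arrays, and the unadjusted 95% intervals were 0.12 to 2.30, 0.54 to 2.82 and 0.22 to 2.79. RARRES1 already had its higher theca signals in medium follicles, where the change from small was 1.84 ± 0.53 (adjusted p = 0.799).

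Whether the size change differed between the layers was tested directly. Granulosa minus theca in the large minus small change was 1.25 ± 0.72 for ALDH1A1 (interval -0.29 to 2.78, adjusted p = 0.561) and 1.30 ± 0.75 for RARRES1 (interval -0.30 to 2.91, adjusted p = 0.559). Neither passed on all arrays or under any alternative run, so the rise in granulosa is not shown to differ from the change in theca.

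The granulosa rises rested on few arrays. The ALDH1A1 call was lost without granulosa large replicate 1 (1.60, adjusted p = 0.236), without granulosa small replicate 1 (2.64, adjusted p = 0.144) and without granulosa small replicate 2 (2.27, adjusted p = 0.156). The RARRES1 call was lost without the same arrays, at 2.34 (adjusted p = 0.155), 2.83 (adjusted p = 0.135) and 3.13 (adjusted p = 0.0739). The direction stayed the same in each case. The whole contrast behaved alike, with 382 probe sets called on all arrays and 2 or 61 when granulosa small replicate 1 or 2 was left out. Leaving out granulosa large replicate 1 gave 0 calls by limma and 1780 probe sets at an unadjusted p under 0.05.

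Markers of white blood cells moved with this rise. All 10 leukocyte markers listed (PTPRC, CD68, CD14, C1QA, C1QB, C1QC, CSF1R, S100A8, CD3E and TYROBP) were called higher in large than in small granulosa, with a median change of 3.63. Their summed signal was 432.3 and 509.8 on small, 1136.2 and 568.3 on medium and 13439.0 and 4024.0 on large granulosa arrays, against 1034.4 to 3238.5 on theca arrays. Of the 10 markers, 0 were below the filter signal of 22.5 on the large granulosa arrays. The same 3 granulosa arrays, large replicate 1, large replicate 2 and medium replicate 1, ranked highest in that order for the leukocyte sum, ALDH1A1 and RARRES1. The part of leukocytes in the ALDH1A1 and RARRES1 rises was not tested.

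The summed signal of theca markers did not move that way. The summed theca marker signal in granulosa was 1688.1 and 1704.4 in small, 750.5 and 1480.5 in medium and 1107.9 and 1072.7 in large follicles, so the large arrays lay below the small ones while ALDH1A1 and RARRES1 lay above. Of 5 tested theca markers, 0 were called higher and 1 lower in large minus small granulosa by limma, a contrast with 2482 probe sets at an unadjusted p under 0.05. As a share of theca signal at the same size, CYP17A1 went from 0.99% in small to 3.18% in large granulosa and INSL3 from 6.46% to 6.66%. The share went from 10.2% to 7.14% for NR2F2, from 8.61% to 7.06% for TCF21 and from 9.72% to 3.85% for APOD. The part of theca cells in the ALDH1A1 and RARRES1 rises was not tested. The summed signal of 7 endothelial markers was 236.0 and 299.0 in small, 172.9 and 129.9 in medium and 492.5 and 281.8 in large granulosa, with 0 of 6 tested called.

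**Figure D3:**
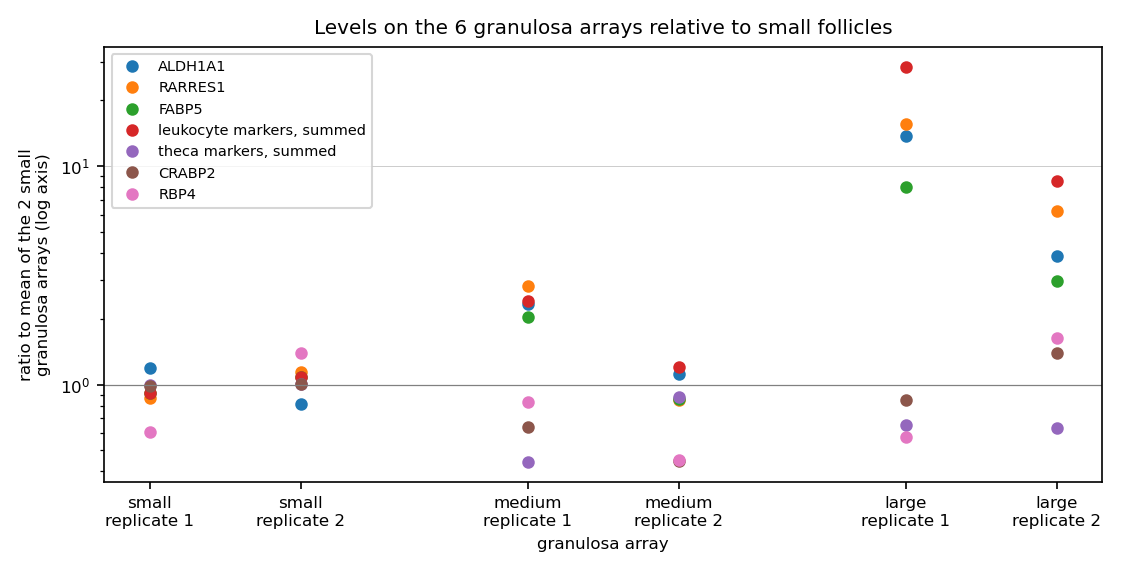
Levels on the 6 granulosa arrays (log axis) divided by the mean of the 2 small granulosa arrays, for the 4 genes, FABP5 and the summed leukocyte and theca markers, with 1 point per array. On large replicate 1 the leukocyte sum is 28.5 times, RARRES1 15.6 times, ALDH1A1 13.8 times and FABP5 8.04 times the small mean, while the theca marker sum is 0.653 times it.

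Granulosa signals were also set against theca of the same follicle size, gene by gene. ALDH1A1 in granulosa was 1.46% of its mean theca signal in small and 2.56% in medium follicles, and 5.55% in large ones, where the replicates gave 8.65% and 2.44%. For RARRES1 the shares were 5.25%, 2.74% and 18.4%, with 26.3% and 10.5% for the large replicates. For the theca markers CYP17A1, INSL3, NR2F2, TCF21 and APOD the mean shares in large follicles ran from 3.18% to 7.14%, with a median of 6.66%. The mean ALDH1A1 share in large follicles lay within this range. Single large arrays of the markers ran from 1.15% (CYP17A1 replicate 1) to 7.81% (TCF21 replicate 1). ALDH1A1 replicate 1 lay above that range of arrays and replicate 2 within it. Both RARRES1 replicates lay above it. Markers of other wall cells reached higher shares: in large follicles 6 of 6 endothelial, 4 of 6 smooth muscle and pericyte and 3 of 7 fibroblast and stroma markers had a larger share than RARRES1, the endothelial ones at 31.2% to 118.0%. Any background signal of the array is included in these shares.

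**Figure D4:**
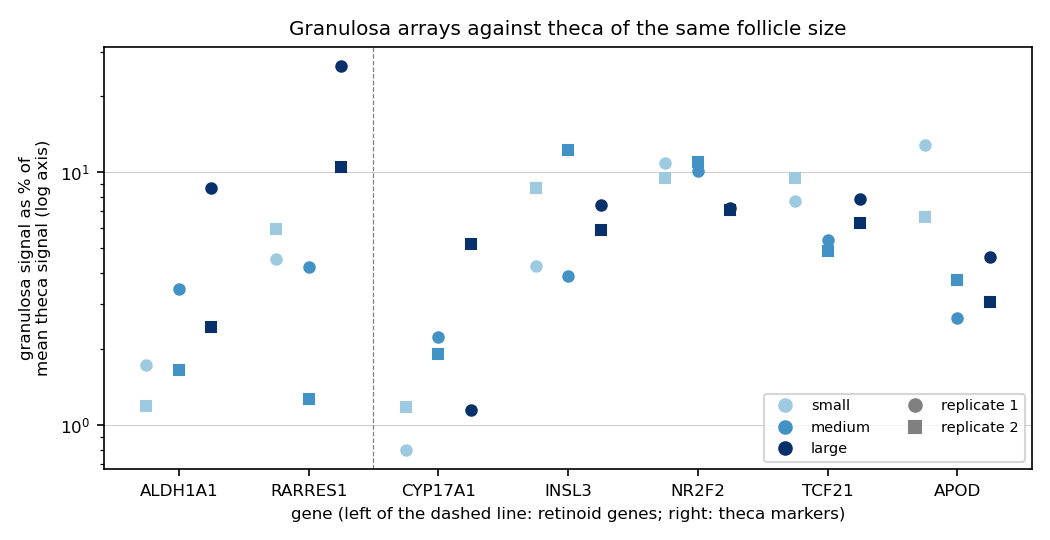
Granulosa signal as a percentage of the mean theca signal of the same follicle size (log axis), for ALDH1A1 and RARRES1 left of the dashed line and 5 theca markers right of it, with 1 point per granulosa array. The large RARRES1 points, 26.3% and 10.5%, are above the large points of the 5 markers, and so is ALDH1A1 on large replicate 1 (8.65%).

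CRABP2 was examined the same way from the other side. Its mean theca signal was 3.76% of the mean granulosa signal in small and 8.70% in medium follicles, and 11.6% in large ones. The replicates gave 3.25% and 4.27% in small, 15.5% and 1.84% in medium and 7.05% and 16.1% in large follicles. The medium range thus enclosed the small one and overlapped the large one. Of 13 granulosa markers, 12 had a larger theca share than CRABP2 in small follicles and 11 in medium and in large follicles. The granulosa markers themselves had median shares of 18.9%, 22.2% and 35.9% from small to large follicles. In large follicles their shares ran from 1.81% (IHH) to 132.5% (FOXL2). The mean share of CRABP2 and the median share of these markers were both the largest in large follicles. For CRABP2, the difference between the layers in the large minus small change did not pass the test, as given above.

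The wider retinoid pathway was described with a list of 67 genes by role, of which 44 had a probe set of 1 symbol and 33 were tested. Between the layers over all sizes, 11 of the 33 were called (33.3%), 2 higher in granulosa and 9 higher in theca, against 13.6% of all probe sets called higher and 11.2% called lower. Without the 4 members it was 8 of 29 (27.6%), 1 higher and 7 lower, close to the 24.8% of all probe sets. The list's median change was 0.05, beside 0.10 over all probe sets.

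**Figure D5:**
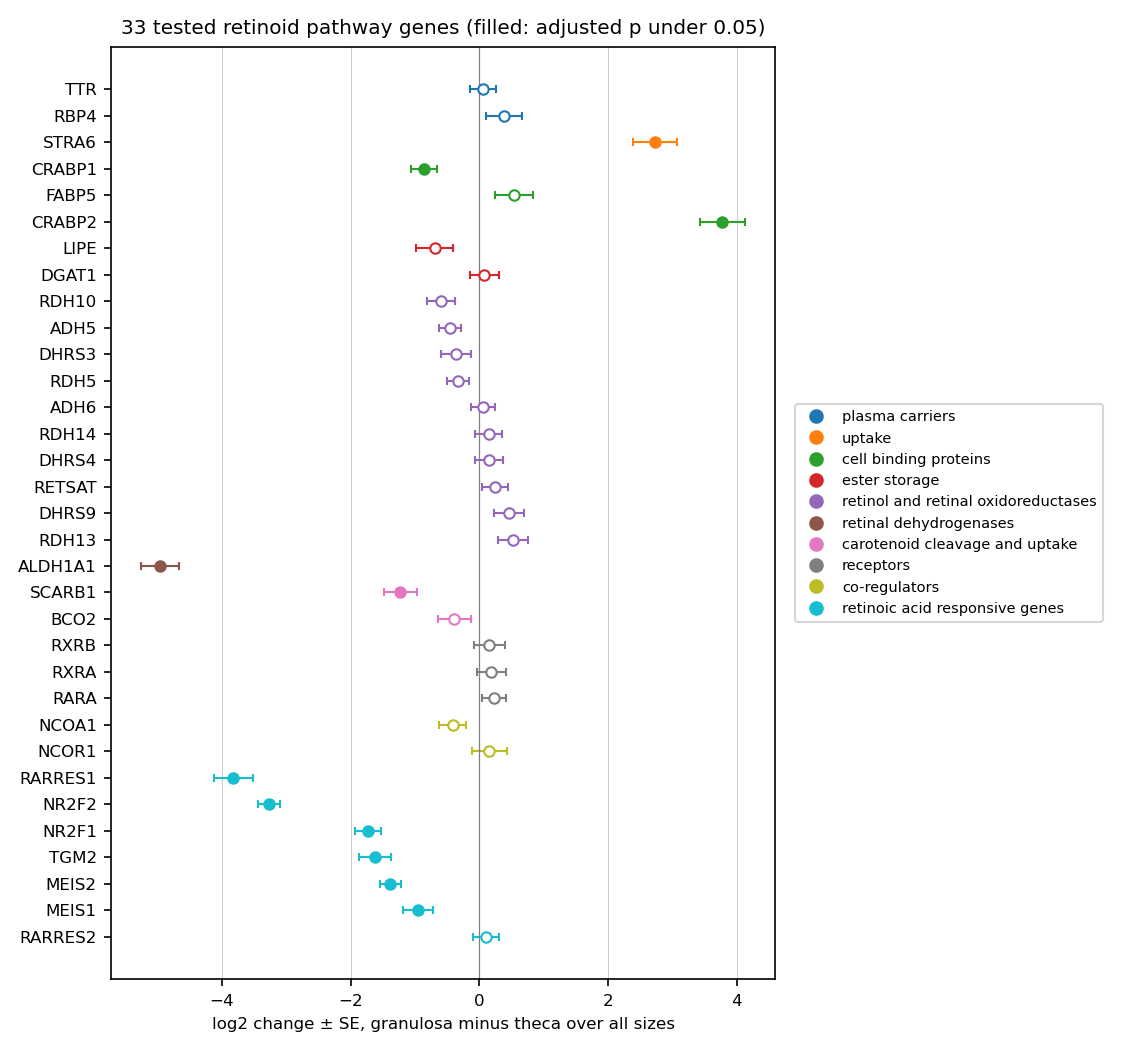
Granulosa minus theca over all sizes for the 33 tested retinoid pathway genes, as log2 change ± standard error, coloured by role, with filled points at an adjusted p under 0.05. CRABP2 and STRA6 are the filled points to the right, and ALDH1A1, RARRES1, NR2F2, NR2F1, TGM2, MEIS2, SCARB1, MEIS1 and CRABP1 are filled to the left.

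STRA6, the uptake receptor for retinol bound to RBP4, was the other gene of the list called higher in granulosa by its brightest probe set. Its granulosa signals were 1943.5 and 5108.2 in small, 1740.7 and 4290.4 in medium and 2204.4 and 988.7 in large follicles. Its theca signals were 217.8 and 587.4 in small, 399.1 and 426.3 in medium and 191.8 and 349.0 in large follicles. No theca array reached the lowest granulosa array, and the difference was 2.73 ± 0.34 (6.65-fold, adjusted p = 6.95e-05), or 2.81 (adjusted p = 4.31e-05) by a second probe set of the gene. It was called within each size too, at 3.08 (small), 2.68 (medium) and 2.44 (large; adjusted p = 0.00595, 0.0144 and 0.0331), but the replicates differed widely. Leaving out 1 array took the small call to an adjusted p of 0.0938 (without granulosa small replicate 2) or 0.0703 (without theca small replicate 1). For the medium call, theca replicates 1 and 2 gave 0.0878 and 0.0998 when left out, and granulosa medium replicate 2 gave 0.17. For the large call, theca replicates 1 and 2 gave 0.224 and 0.0823, and granulosa large replicate 1 gave 0.223. The large call was also lost with pseudocounts of 1 and 64 and with no filter (adjusted p = 0.0976, 0.063 and 0.061), and the medium call with a pseudocount of 1 (adjusted p = 0.0609).

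CRABP1, the relative of CRABP2 that also binds retinoic acid, was dim throughout and did not share its pattern. Its theca signals were 52.1 and 19.1 in small and 43.8 and 40.0 in medium follicles but 1.6 and 1.4 in large ones, and its granulosa signals were 0.6 to 14.0. All granulosa and large theca arrays were below the filter signal of 22.5, so the size of the difference is set by the pseudocount. Over all sizes it was -0.86 ± 0.20 (adjusted p = 0.00736), and -1.85 and -0.36 with pseudocounts of 1 and 64, called each time, while in large follicles alone it was 0.57 ± 0.35 (adjusted p = 0.37). Granulosa minus theca in the large minus small change was 2.06 ± 0.50 (adjusted p = 0.153), so the turn between sizes did not pass the test.

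Among enzymes, ALDH1A1 was the only retinal dehydrogenase of the list with a probe set of 1 symbol. Of 10 tested retinol and retinal oxidoreductases, 0 were called by limma over all sizes when the brightest probe set stood for each gene. Of all probe sets 24.8% were called there, and 6675 had an unadjusted p under 0.05. In small follicles 1 of the 10, RDH5, was called, lower in granulosa, against 9.14% of all probe sets called. It was dim, at 2.8 and 7.6 in small granulosa and 26.2 and 27.3 in small theca. These signals lay on both sides of the filter signal of 22.5, so the size of the difference depends on the pseudocount. Over all sizes, a second probe set of RETSAT, the retinol saturase, was called higher in granulosa (1.26, adjusted p = 0.000157), while its brightest one gave 0.24 (adjusted p = 0.407). RDH10, which oxidises retinol to retinal, gave -0.60 ± 0.22 (adjusted p = 0.0595), and DHRS3, which reduces retinal back to retinol, gave -0.37 ± 0.23 (adjusted p = 0.261). RDH10 passed the test without theca small replicate 1 (-0.73, adjusted p = 0.0275), without granulosa large replicate 1 (-0.70, adjusted p = 0.0421) and without granulosa medium replicate 1 (-0.72, adjusted p = 0.0393). SCARB1, a membrane receptor for lipoproteins that also takes up carotenoids, was higher in theca, with 871.3 to 2747.9 against 523.9 to 892.1 in granulosa (-1.23 ± 0.25, adjusted p = 0.00316), with 1 array of each layer in the overlap.

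The nuclear receptors did not separate the layers. RARA gave 118.2 to 222.4 in granulosa and 105.4 to 163.2 in theca (0.23 ± 0.19, adjusted p = 0.395), and its other probe set gave -0.26. RXRA gave 0.18 ± 0.23 (adjusted p = 0.585) and RXRB 0.15 ± 0.24 (adjusted p = 0.675). RXRG was below the filter in every group, at 0.9 to 7.7, and was not tested. RARB and RARG were not analysed here, and the same holds for the breakdown enzymes CYP26A1 and CYP26B1 and for ALDH1A2 and ALDH1A3.

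Of 7 tested genes listed as retinoic acid responsive, 6 were called and all 6 were higher in theca, against 11.2% of all probe sets, the list's median being -1.62. RARRES1, a member, is 1 of the 6. The list was chosen with earlier results of these data known, so the count is not independent of them. A response to retinoic acid was not tested. NR2F2, a nuclear receptor that is also one of the theca markers, gave 951.2 to 1364.9 in theca against 78.8 to 142.4 in granulosa (-3.27 ± 0.17, 9.62-fold, adjusted p = 3.13e-08). Its relative NR2F1 differed by -1.74 ± 0.20 (adjusted p = 4.32e-05), and TGM2, the tissue transglutaminase, by -1.62 ± 0.25 (adjusted p = 0.000395). The homeobox genes MEIS2 (-1.38 ± 0.17, adjusted p = 5.78e-05) and MEIS1 (-0.95 ± 0.24, adjusted p = 0.0103) completed the 6 with RARRES1. RARRES2, which encodes the adipokine chemerin, was bright in both layers, at 3681.1 to 7904.2 in granulosa and 3853.0 to 8741.7 in theca, and was not called (0.10 ± 0.20, adjusted p = 0.751).

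From small to large granulosa, 4 of the 33 pathway genes were called, all of them higher (12.1%, against 1.82% of all probe sets called higher). Besides the 2 members these were TTR and FABP5, or 2 of 29 (6.90%). TTR, the plasma partner of RBP4, gave 5.2 and 4.5 in small, 27.5 and 25.2 in medium and 82.4 and 117.4 in large granulosa, and 13.0 to 38.6 in theca. The 3 sizes did not overlap, and the rise was 2.46 ± 0.35 (adjusted p = 0.00419). The small arrays lay below the filter signal, so its size is set by the pseudocount, at 4.09 and 1.24 with pseudocounts of 1 and 64, called each time. The call was lost without granulosa small replicate 1 (2.48, adjusted p = 0.0744) and without granulosa large replicate 1 (2.68, adjusted p = 0.0587). On large granulosa arrays TTR was higher on replicate 2, unlike ALDH1A1, RARRES1 and the leukocyte sum.

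FABP5, a fatty acid binding protein that also binds retinoic acid, gave 379.8 and 450.1 in small, 848.2 and 356.9 in medium and 3335.6 and 1242.0 in large granulosa. The rise was 2.26 ± 0.52 (4.78-fold, adjusted p = 0.0381). Its arrays had large replicate 1, large replicate 2 and medium replicate 1 at the top in the order of the leukocyte sum given above. The call was lost without granulosa large replicate 1 (1.55, adjusted p = 0.327), without granulosa small replicate 1 (2.14, adjusted p = 0.249) and without granulosa small replicate 2 (2.38, adjusted p = 0.151). It was also lost with pseudocounts of 1 and 64, quantile normalization and no filter (adjusted p = 0.113, 0.0762, 0.0523 and 0.0698). These values are those of the brightest probe set. On all arrays, a second probe set of the gene was also called in this contrast (3.399, adjusted p = 0.0103). Over all sizes that probe set was called higher in granulosa (1.039, adjusted p = 0.0416), while the brightest one gave 0.537 (adjusted p = 0.205). The part of leukocytes in the FABP5 rise was not tested.

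In the other size contrasts, and in the test of the difference between layers, 0 of the 33 pathway genes were called by limma. Unadjusted p-values under 0.05 over all probe sets there numbered 581 in medium minus small granulosa, 1997 in large minus medium granulosa, 1765, 1069 and 539 in the theca contrasts (large minus small, medium minus small, large minus medium) and 1820 in the difference between layers.

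The genes whose signals followed each member most closely over the 12 arrays were found by Pearson's r on log2(signal + 16). For CRABP2 they were MERTK (r = 0.981), a receptor kinase for the uptake of dying cells, IGFBP5 (0.972), an IGF binding protein, MFGE8 (0.963), a bridging protein for the same uptake, and TNFRSF12A (0.960). For ALDH1A1 they were FDX1 (0.969), the ferredoxin that feeds electrons to mitochondrial steroid enzymes, CPE (0.968), a carboxypeptidase, ISCU (0.968), a scaffold for iron-sulphur clusters, and GINM1 (0.964). For RARRES1 they were MFAP4 (0.972), a microfibril protein, TFPI2 (0.965), a protease inhibitor, ICAM1 (0.965), an adhesion molecule, and HSPB6 (0.963). For RBP4 they were PDLIM7 (0.958), WNT11 (0.907), COX5A (0.902) and RCAN2 (0.891).

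These coefficients describe 12 arrays that share 2 layers, so for CRABP2, ALDH1A1 and RARRES1 any gene with a large layer difference scores high. MERTK, for example, gave 499.8 to 824.4 in granulosa and 49.8 to 203.1 in theca, and CPE 152.2 to 240.4 in theca and 19.5 to 58.2 in granulosa. The neighbours of RBP4, like RBP4, were not called between the layers. Without the 2 arrays that stood apart, 1 of the 4 neighbours of CRABP2, 1 of ALDH1A1, 2 of RARRES1 and 1 of RBP4 stayed among the closest 4. On all arrays, 2 of the 4 CRABP2 neighbours stayed with a pseudocount of 64, and 2 with quantile normalization.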

How the data were processed

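Members and lists were chosen with earlier results of these data known. The authors deposited linear signal intensities for each probe set. The software behind them is not given in the sources used here. Detection calls were not used. The authors had scaled them, since the 2% trimmed mean was 125.03 to 125.04 on every array, and medians ran from 33.6 to 48.7. Of 24128 probe sets, 112 controls were left out, and 17236 were tested, those whose mean log2(signal + 16) in at least 1 group exceeded the value at the 40th percentile (signal 22.5). limma 3.58.1 (R 4.3.3) fitted a mean per group over 12 arrays, with moderated tests without trend (6 residual and 7.92 prior degrees of freedom, prior SD 0.376) and Benjamini-Hochberg adjustment within each of 11 contrasts. The fit was tested on simulated data. Intervals are 95% and unadjusted. With 2 arrays per group, the number of arrays limits precision. A pathway gene was represented by its brightest probe set. Pathway genes were named if called between the layers over all sizes or in a large minus small contrast, with a fixed set of receptors and enzymes and the 4 genes most correlated with each member. RARRES2, for one, was named after its values were seen. A RefSeq gene table (assembly ARS-UCD2.0) served for names only, and 0 symbols changed. Alternatives were other pseudocounts (1 and 64), quantile normalization, no filter, an intensity trend, a replicate block, the compared groups alone, other probe sets and left-out arrays. Figures used matplotlib 3.10.9 (Python 3.11.15).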

Additional observations from a re-analysis of the deposited data

How the results depend on the processing

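The members' calls over all sizes (CRABP2, ALDH1A1, RARRES1) were kept in all 19 alternatives, with adjusted p-values of at most 0.000503, 2.66e-05 and 0.000127. With a pseudocount of 1 the large layer calls of CRABP2 (3.18, adjusted p = 0.082) and RARRES1 (-2.56, adjusted p = 0.0796) and the granulosa rise of ALDH1A1 (2.86, adjusted p = 0.0627) were lost, and the last also with a pseudocount of 64 (1.76, adjusted p = 0.0913). Without both arrays that stood apart, the granulosa rises of ALDH1A1 (1.60, adjusted p = 0.176) and RARRES1 (2.34, adjusted p = 0.0932) were lost. The cause of these changes was not tested, and the fits without arrays also had fewer arrays. With 1 array left out at a time, the large layer difference ran from 2.54 to 3.66 for CRABP2 and from -3.16 to -1.88 for RARRES1, and the granulosa rise from 1.60 to 3.31 for ALDH1A1 and from 2.34 to 3.62 for RARRES1.

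Changes that were not called could turn in sign with 1 array left out: CRABP2 from -0.24 to 0.48 in large minus small granulosa and from -1.34 to 1.04 in medium minus small theca (0.011 with a pseudocount of 64). ALDH1A1 ran from -0.63 to 0.40 in medium minus small theca, and RARRES1 from -0.17 to 1.28 in medium minus small granulosa and from -0.51 to 0.18 in large minus medium theca. RBP4 ran from -0.74 to 0.042 between the layers in medium follicles, from -0.62 to 0.77, -1.08 to 0.022 and -0.091 to 1.30 in granulosa (large minus small, medium minus small, large minus medium) and from -0.043 to 0.23 in large minus small theca. In its difference between layers RBP4 ran from -0.71 to 0.68, with 0.0037 at a pseudocount of 64 and 0.74 without both arrays. Over all sizes TTR ran from -0.10 to 0.20 (-0.23 with a pseudocount of 1), RXRA from -0.00025 to 0.37 and RXRB from -0.070 to 0.38.

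Pathway genes called higher in granulosa over all sizes numbered 2, and 4 with the second brightest probe sets. Each member has 1 probe set, so that alternative gave no value for them. Over all probe sets, 4273 layer calls became 2648 without theca medium replicate 2. The 382 calls of large minus small granulosa became 224 and 158 with pseudocounts of 1 and 64, 58 without both arrays and 635 without granulosa large replicate 2. With 1 array left out at a time, layer calls ran from 501 to 2232 in small (1575 on all arrays), from 360 to 1301 in medium (1034) and from 199 to 1013 in large follicles (760). Quantile normalization gave 2017 higher and 2069 lower layer calls over all sizes, against 2337 and 1936. In large follicles it gave 240 and 465, against 348 and 412, and moved the median of all probe sets from 0.12 to 0.02.

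Over 15 pairs of same-numbered arrays, deviations correlated from -0.335 to 0.402, and 6 pairs exceeded 0.1, so the numbers were not taken to pair the samples. Whether pools have a shared origin is not settled. With the replicate block, layer calls numbered 4188 and large minus small granulosa calls 425. The block changed 1 member call, RARRES1 in large minus medium granulosa (2.43, adjusted p = 0.0122). In all, 1340 of 1437 alternative results counted as unchanged, for most by direction and side of the threshold. The total also holds counts of list genes and neighbours, which have no direction, and 7 of these moved. Leaving out an array of a group that is not compared leaves the change as it was, so part of the total had a fixed direction.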
